A study of Mus musculus with 12 samples.

Results

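The integrated stress response and the unfolded protein response were followed through 37 genes in the hippocampus of mice of 4 genotypes. The genes were chosen by symbol: 21 genes of the response that runs through the transcription factor Atf4, with its amino acid genes, and 16 genes of the chaperone response of the endoplasmic reticulum. All 37 were in the table of 24421 genes, and 34 passed the filter on low counts, as did 13065 genes in all. The 34 were 19 of the 21 Atf4-linked genes and 15 of the 16 chaperone response genes. The symbols came from the pathway and not from a contrast, but the set was proposed with results of these libraries in view, so the counts over it are descriptions.

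The samples were hippocampi of mice aged 2 months, all of which had received BrdU, a label for newly made DNA. There were 3 libraries for each genotype: WT, 5xFAD, p75NTRko and the combination 5xFAD/p75NTRko. The 5xFAD line expresses human disease genes from a neuronal Thy1 promoter, so that it models amyloid formation from added genes at a level set by that promoter. The name p75NTRko stands for a knockout of the p75 neurotrophin receptor, whose gene is Ngfr, and the allele is not given in the sources used here. The series title asks how that receptor shapes the birth of neurons in the hippocampus in Alzheimer's disease. Libraries of 5xFAD and 5xFAD/p75NTRko are called carriers below, and those of WT and p75NTRko non-carriers.

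In the integrated stress response, kinases that sense different stresses phosphorylate the initiation factor eIF2. Most translation then slows, while the mRNA of Atf4 is translated better, and Atf4 turns on genes for amino acid supply and for recovery. In the unfolded protein response, the sensors Ern1, Atf6 and Eif2ak3 in the membrane of the endoplasmic reticulum react to unfolded protein, and Atf6 and spliced Xbp1 raise chaperones such as Hspa5. Much of both responses is set by translation, splicing and protein cleavage, which counts of 3′ ends do not see.

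Levels are given as CPM, gene counts scaled to the same total in each library. Counts of 3′ ends carry no term for gene length, so CPM of different genes can be set side by side as approximate transcript shares. Each library held 4316739 to 6683613 gene counts, and 3 counts corresponded to 0.446 to 0.690 CPM. The labels put all 12 libraries in 1 batch and call them biological replicates. Ngfr read 5.95 to 10.5 CPM in the 6 libraries whose label names the knockout, against 0.166 to 1.95 in the other 6, so it was higher there. Counts of 3′ ends do not show whether a working receptor is made, and the allele is not given. The library labels are therefore used below as names only. Thy1, whose promoter drives the transgenes, read 1596 to 4019 CPM in carriers and 688 to 939.8 in non-carriers. Xist, the RNA of the inactive X chromosome, read 359.7 to 439 CPM in 7 libraries (all WT, all 5xFAD/p75NTRko and p75NTRko replicate 1) and 1.53 to 3.58 in the other 5. Sex class and genotype therefore cannot be told apart between 5xFAD and WT or between 5xFAD/p75NTRko and 5xFAD. Hippocampal neuron markers were all detected (9 of 9 tested, summed level 2952 to 4470 CPM). Choroid plexus markers, of tissue that lies beside the hippocampus, varied widely between libraries, from 182 to 7392 CPM summed over 16 of 16 genes with none at 0.

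No gene of the 34 passed an adjusted p of 0.05 in any of 9 comparisons in the quasi-likelihood test of edgeR, adjusted by the Benjamini-Hochberg method over all 13065 genes. The genotype effects called over all genes were few as well. They made up 0.0536% of genes tested for 5xFAD against WT, 0.0383% for 5xFAD/p75NTRko against 5xFAD and 0.0383% for the interaction. The share was 0% for p75NTRko against WT, 0% for 5xFAD/p75NTRko against p75NTRko and 0% for 5xFAD/p75NTRko against WT. A test of any difference among the 4 genotypes called 0.0995%. Carriers against non-carriers and receptor-labelled libraries (p75NTRko and 5xFAD/p75NTRko) against the others, 2 comparisons added after the values by library had been seen, called 0.0153% and 0.0842%.

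The most extreme members in the test of any genotype difference were Pdia6, Hspa5 and Eif2ak4. Pdia6 and Hspa5, an oxidoreductase and the main chaperone of the endoplasmic reticulum, had lower levels in both genotypes that carry the transgenes. DESeq2, another count test, called both of them between 5xFAD and WT, between 5xFAD/p75NTRko and WT, between carriers and non-carriers and in the test of any difference. Eif2ak4, the kinase that senses amino acid shortage, had its lowest 3 values in the 3 WT libraries.

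At an unadjusted p under 0.05, the members divided as follows. Between 5xFAD and WT, 1 of 34 was higher and 3 were lower, where the shares of all genes were 7.73% and 6.14%. Between p75NTRko and WT the counts were 4 and 2, beside 5.33% and 6.16% of all genes. Both comparisons share the WT libraries.

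In 5xFAD/p75NTRko against 5xFAD, 0 members were higher and 2 lower, beside 1.98% and 3.1% of all genes. Against p75NTRko, 0 were higher and 5 lower, beside 3.6% and 2.99%, and all 5 belonged to the chaperone response. Against WT, 4 were higher and 6 lower, beside 5.51% and 4.44%. That is 17.6% of the 34 members on the lower side. Several of the 10 rested on 1 WT library, replicate 2, as given further on. Without that library only Eif2ak4 kept this p on the higher side, while Slc7a11, Phgdh, Dnajc3, Sdf2l1 and Manf joined the lower side.

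The interaction, which is the receptor label's difference with the transgenes minus that without them, had 0 members higher and 1 lower at an unadjusted p under 0.05, beside 5.19% and 4.13% of all genes. The test of any difference had 6 members, beside 10.4%. Carriers against non-carriers had 1 higher and 4 lower, beside 5.99% and 4.26%. Receptor-labelled libraries against the others had 3 higher and 2 lower, beside 2.59% and 3.71%.

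**Figure D1:**
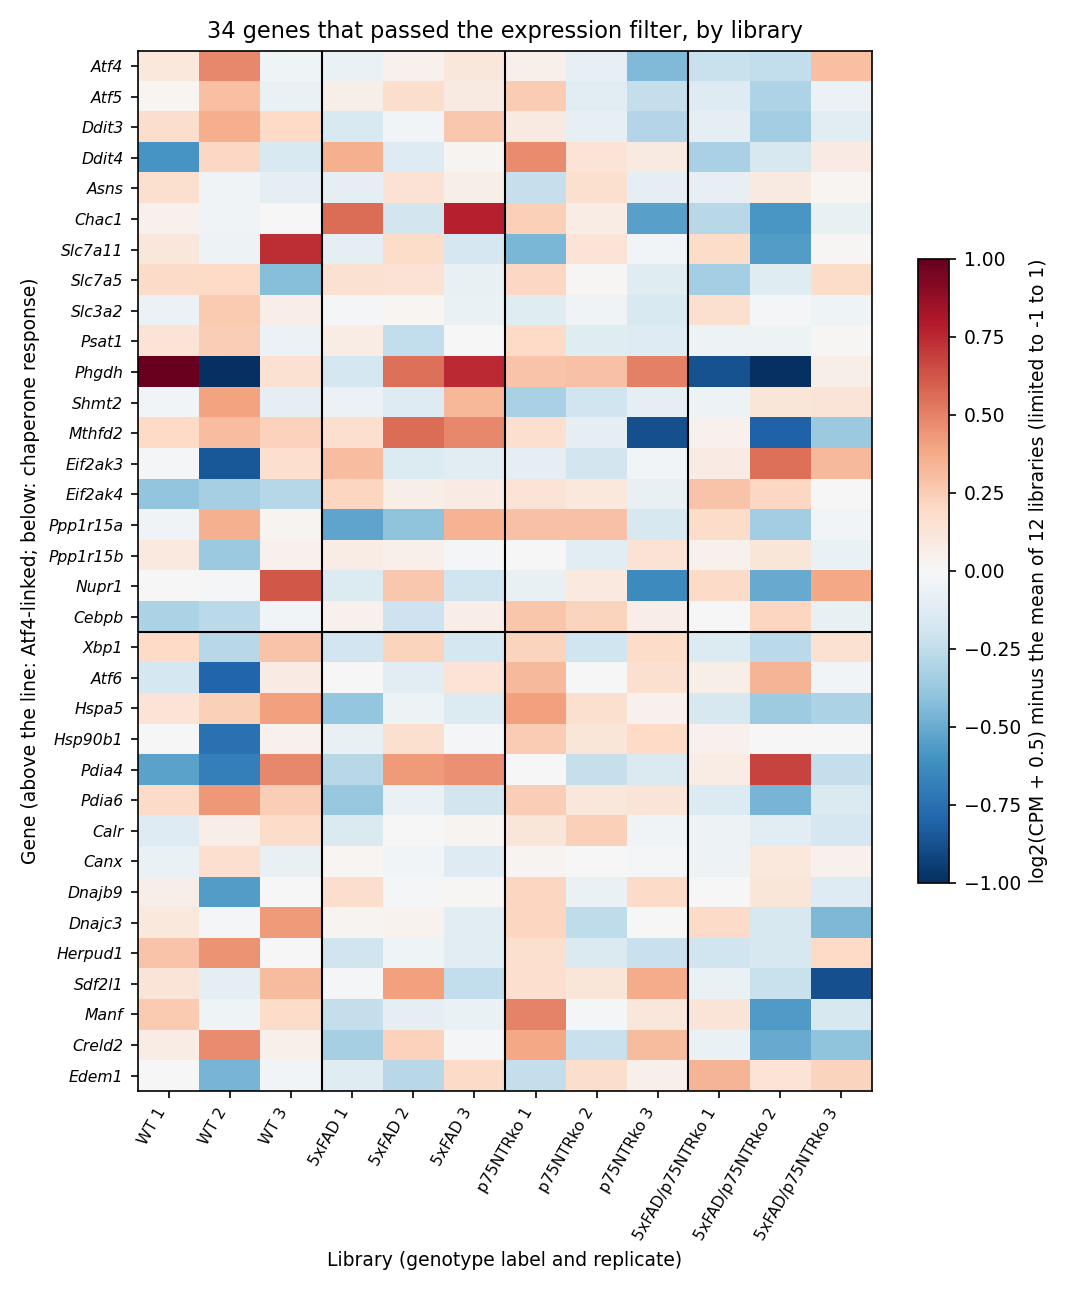
Level of the 34 genes in each of the 12 libraries, as log2(CPM + 0.5) minus the gene's mean over the libraries; the colour scale ends at -1 and 1. Hspa5 and Pdia6 are blue in all 6 carrier libraries and red in all 6 others, Eif2ak4 is blue in the 3 WT libraries, and WT replicate 2 holds the lowest value of 9 genes and the highest of 11.

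Hspa5, also called BiP, is the abundant Hsp70 chaperone of the endoplasmic reticulum that holds the stress sensors inactive until unfolded protein draws it away. Its gene lies at chr2:34772090-34776529 (GRCm38). It read 582, 622 and 703 CPM (WT), 404, 511 and 480.1 (5xFAD), 704, 591 and 545 (p75NTRko) and 472, 412 and 425 (5xFAD/p75NTRko). All 6 carrier libraries, at 404 to 511 CPM, lay below all 6 non-carrier libraries, at 545 to 704 CPM.

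Mean Hspa5 was 636 ± 61.6 CPM (SD, n = 3) in WT and 613 ± 81.8 in p75NTRko, and 465 ± 54.7 in 5xFAD and 437 ± 31.7 in 5xFAD/p75NTRko. The log2 fold change of 5xFAD against WT was -0.45 (SE 0.118, unadjusted p = 0.0017, adjusted p = 0.187 by edgeR). That of 5xFAD/p75NTRko against p75NTRko, which uses none of the same libraries, was -0.49 (SE 0.118, unadjusted p = 0.000878, adjusted p = 0.452 by edgeR).

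Pdia6 is a protein disulfide isomerase that makes and breaks disulfide bonds in new proteins and works beside Hspa5. The gene spans chr12:17266589-17284785 (GRCm38). It read 375, 443 and 389.7 CPM (WT), 253, 314 and 289 (5xFAD), 389, 355 and 358 (p75NTRko) and 299, 238 and 297 (5xFAD/p75NTRko). Here too the carriers, at 238 to 314 CPM, did not overlap the non-carriers, at 355 to 443 CPM.

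Mean Pdia6 was 403 ± 35.7 CPM (SD, n = 3) in WT and 368 ± 18.9 in p75NTRko, and 285 ± 30.7 in 5xFAD and 278 ± 34.7 in 5xFAD/p75NTRko. On the log2 scale the difference was -0.50 for 5xFAD against WT (SE 0.111, unadjusted p = 0.000452, adjusted p = 0.116 by edgeR) and -0.40 for 5xFAD/p75NTRko against p75NTRko (SE 0.111, unadjusted p = 0.00258, adjusted p = 0.558).

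Both estimates for 5xFAD against WT changed with Xist class as a term in the model. Only p75NTRko held libraries of both classes, so here and below this term was set by its replicate 1 against replicates 2 and 3. That replicate also had the highest choroid plexus sum, 7392 CPM. With the term, 5xFAD against WT gave -0.14 for Hspa5 (adjusted p = 0.950 by edgeR) and -0.37 for Pdia6 (adjusted p = 0.949). For 5xFAD/p75NTRko against p75NTRko it gave -0.69 and -0.49 (adjusted p = 0.415 and 0.938). Markers of other regions and cells also differed in estimate here. Between 5xFAD and WT, 11 of 12 tested thalamus and habenula markers had a lower estimate (5 at an unadjusted p under 0.05) and 9 of 9 hippocampal neuron markers a higher one (4 at that p). In 5xFAD/p75NTRko against p75NTRko, 11 of 12 thalamus and habenula markers were on the higher side (4 at that p) and 8 of 8 oligodendrocyte markers on the lower side (7 at that p). Choroid plexus markers were on the lower side in both comparisons, 16 of 16 in each (median -1.34 and -1.22 log2 units, 0 at that p). None of these markers passed the adjusted threshold, and their part in the Hspa5 and Pdia6 values was not tested.

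The interaction was -0.04 for Hspa5 (95% interval -0.39 to 0.32) and 0.10 for Pdia6 (-0.24 to 0.43) in log2 units. The receptor label alone gave -0.05 and -0.13 against WT, and -0.09 and -0.04 within the carriers. Adjusted p in edgeR's quasi-likelihood test was 0.662 or above for these 6 values. With Xist class as a term the interaction became -0.55 for Hspa5 and -0.11 for Pdia6, and 5xFAD/p75NTRko against 5xFAD became -0.40 and -0.16, with an adjusted p of 0.998 or above.

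Carriers and non-carriers were then compared over all 12 libraries, a comparison chosen after these values had been seen. Pdia6 differed by -0.45 log2 units (SE 0.0783, 95% interval -0.62 to -0.28, adjusted p = 0.0804 by edgeR) and Hspa5 by -0.47 (SE 0.0832, -0.65 to -0.29, adjusted p = 0.0832). By unadjusted p they ranked 7 and 8 of 13065 genes. Neither passed the threshold, which 2 genes of the whole table did here.

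Libraries that do not overlap were rare over all genes: 0.23% were lower in all 6 carriers than in all 6 non-carriers, and 0.352% were higher. Of the 34 members, 2 were lower in this way, Hspa5 and Pdia6, and 0 higher. Split by the receptor label, 0.161% of all genes were lower without overlap and 0.161% higher, and 0 members were either.

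The call depended on the count test. By DESeq2, 0.85% of genes with an adjusted p were called for 5xFAD against WT, and they included Pdia6 (adjusted p = 0.0106) and Hspa5 (adjusted p = 0.0433). For 5xFAD/p75NTRko against WT, DESeq2 called 0.222% of genes, with Pdia6 at an adjusted p of 0.00502 and Hspa5 at 0.00986. For 5xFAD/p75NTRko against p75NTRko it called 0.167%, Hspa5 among them (adjusted p = 0.0444) and Pdia6 not (adjusted p = 0.192).

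In the test of any difference DESeq2 called 1.35% of genes, with Pdia6 at an adjusted p of 0.000446 and Hspa5 at 0.000707. Between carriers and non-carriers it called 0.678%, with adjusted p of 0.000174 and 0.000178. No other member was called by DESeq2, also not for p75NTRko against WT (0.327% of genes), 5xFAD/p75NTRko against 5xFAD (0.125%), the interaction (0.192%) or the receptor label (0.291%).

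Within edgeR, both genes also passed without the filter on low counts, in the test of any difference (0.443% of genes called, adjusted p = 0.0239 for both) and between carriers and non-carriers (0.093% called, adjusted p = 0.0194 for Hspa5 and 0.0196 for Pdia6). Leaving out 5xFAD/p75NTRko replicate 1 gave an adjusted p of 0.0215 for both between carriers and non-carriers (0.438% called). Among the libraries then left, summed choroid plexus markers did not overlap either, at 182 to 1976 CPM in carriers and 2452 to 7392 CPM in non-carriers. Leaving out 5xFAD/p75NTRko replicate 3 gave an adjusted p of 0.0261 for Pdia6 and 0.0409 for Hspa5 (0.34% called). Over every alternative run, the carrier difference ran from -0.49 to -0.40 for Pdia6 and from -0.51 to -0.39 for Hspa5 on the log2 scale.

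Choroid plexus markers moved with the same split: all 16 had a lower estimate in carriers, 8 of them at an unadjusted p under 0.05 and 0 after adjustment. Their sum was 182 to 7336 CPM in carriers and 2452 to 7392 CPM in non-carriers. The 5xFAD/p75NTRko replicate 1 had 7336 CPM of choroid plexus markers, 472 CPM of Hspa5 and 299 CPM of Pdia6, each highest in its genotype. Replicates 2 and 3 had 182 and 368 CPM of the markers, 412 and 425 of Hspa5 and 238 and 297 of Pdia6. In WT (replicate 3) and p75NTRko (replicate 1), the library with the highest marker sum also had the most Hspa5. In 5xFAD it was replicate 1, which had the least Hspa5. Pdia6 was highest in that library of p75NTRko, lowest in that of 5xFAD and neither in WT. With the choroid plexus score as a term in the model the carrier difference was -0.39 for Hspa5 (adjusted p = 0.317) and -0.40 for Pdia6 (adjusted p = 0.298) by edgeR. With Xist class as a term it was -0.42 and -0.43 (adjusted p = 0.167 for both). Summed markers of microglia (407 to 498 CPM over the 12 libraries), astrocytes (4941 to 5783 CPM) and oligodendrocytes (3877 to 7428 CPM) overlapped between carriers and non-carriers. By gene, 7 of 8 oligodendrocyte markers had a lower estimate in carriers (1 at an unadjusted p under 0.05). Of 6 microglia markers 2 were higher and 1 lower at that p, and of 7 astrocyte markers 0 were higher and 2 lower. After adjustment 0 passed. In bulk tissue, fewer cells of a type and less RNA per cell cannot be told apart.

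**Figure D2:**
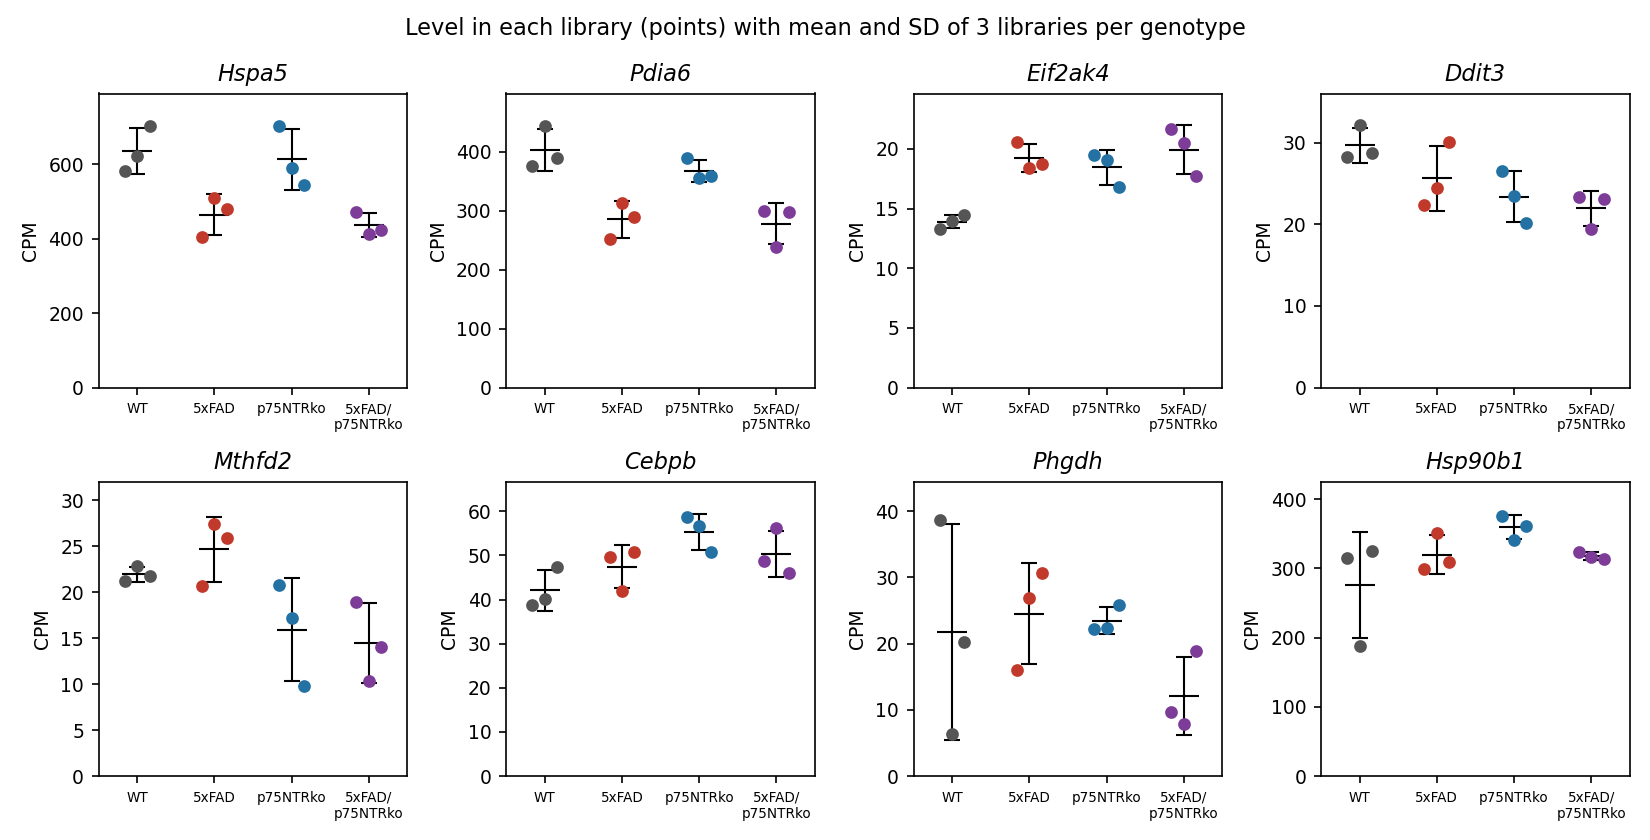
Levels in CPM of 8 genes in each library, with points for the 3 libraries of a genotype, a long bar for the mean and whiskers of 1 SD. Hspa5 and Pdia6 separate both carrier genotypes from both others, Eif2ak4 separates WT from the rest, and Phgdh and Hsp90b1 show 1 WT library, replicate 2, far below the other libraries of its genotype.

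The promoters of Hspa5 and Pdia6 both hold the endoplasmic reticulum stress element (ERSE), the motif read by cleaved Atf6 together with NF-Y. The motif was searched as CCAAT, then 9 bases of any kind, then CCACG, on both strands. The windows came from RefSeq's GRCm38.p6 annotation and ran from 250 bases before to 50 after a start site. Of the 37 genes 33 had a window, and Atf6, Manf, Ppp1r15b and Slc7a5 had none. The 250 bases before each start are shown 5′ to 3′ because these are the 2 genes on which the result turns, with the ERSE in capitals. Both genes lie on the plus strand.
Hspa5 (chr2:34771840-34772089): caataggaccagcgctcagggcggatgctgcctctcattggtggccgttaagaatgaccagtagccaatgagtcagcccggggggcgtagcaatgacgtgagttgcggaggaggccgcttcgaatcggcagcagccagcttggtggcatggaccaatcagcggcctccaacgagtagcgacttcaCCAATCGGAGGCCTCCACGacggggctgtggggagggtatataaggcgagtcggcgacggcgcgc
Pdia6 (chr12:17266339-17266588): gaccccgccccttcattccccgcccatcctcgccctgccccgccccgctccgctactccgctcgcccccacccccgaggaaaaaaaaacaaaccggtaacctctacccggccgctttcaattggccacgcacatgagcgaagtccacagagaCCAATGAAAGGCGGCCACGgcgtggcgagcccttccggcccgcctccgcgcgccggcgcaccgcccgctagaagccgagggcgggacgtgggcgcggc
The match lay at -65 to -47 from the start in Hspa5 and at -98 to -80 in Pdia6. Copies that differ from the searched letters were not looked for.

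The ERSE was found in 7 of the 14 chaperone response genes with a window and in 0 of the 19 Atf4-linked genes, beside 0.137% of all 27025 genes in the table of promoters. The genes were listed as members of the response that this motif serves, so these shares describe the list and are not a result of the libraries. The other 5 are shown for comparison, each with 20 bases on either side, on the gene's own strand. In Calr, Creld2 and the nearer element of Hsp90b1 the motif reads on the opposite strand, so its capitals begin with CGTGG.
Hsp90b1, further element (chr10:86705618-86705676): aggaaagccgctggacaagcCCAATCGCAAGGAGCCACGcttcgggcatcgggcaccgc
Hsp90b1, nearer element (chr10:86705513-86705571): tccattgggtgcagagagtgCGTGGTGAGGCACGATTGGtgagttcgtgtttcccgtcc
Canx (chr11:50325780-50325838): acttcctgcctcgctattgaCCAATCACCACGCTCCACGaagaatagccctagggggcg
Calr (chr8:84847055-84847113): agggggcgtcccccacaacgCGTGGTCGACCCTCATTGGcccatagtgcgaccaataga
Dnajc3 (chr14:118937807-118937865): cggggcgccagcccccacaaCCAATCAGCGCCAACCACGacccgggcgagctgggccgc
Creld2 (chr15:88819500-88819558): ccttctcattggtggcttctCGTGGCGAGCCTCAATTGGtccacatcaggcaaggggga
Among genes with this element the estimates differed in size. The log2 fold change of carriers against non-carriers was 0.02 for Hsp90b1, -0.01 for Canx, -0.15 for Calr, -0.16 for Dnajc3 and -0.38 for Creld2, beside -0.47 for Hspa5 and -0.45 for Pdia6. A match is a run of letters and not a measured binding site.

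**Figure D3:**
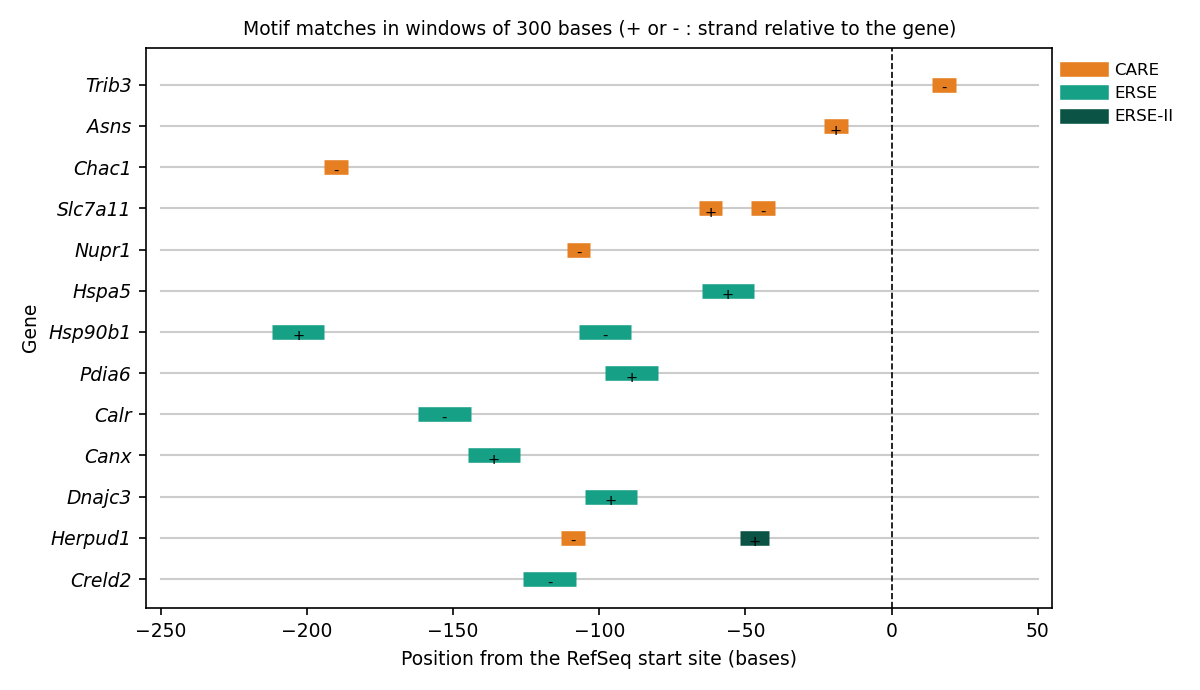
Motif matches in the 13 of 33 promoter windows that hold any, plotted as distance in bases from the RefSeq start site (dashed line at 0), with + or - for the strand relative to the gene. The ERSE matches of 7 chaperone response genes lie upstream of the start, and the C/EBP-ATF response element (CARE) marks 5 Atf4-linked genes and Herpud1.

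Hsp90b1, the Hsp90 of the endoplasmic reticulum, read 315, 187 and 325 CPM (WT), 299, 351 and 309 (5xFAD), 376, 341 and 361 (p75NTRko) and 324, 316 and 314 (5xFAD/p75NTRko). WT replicate 2 was the lowest of all 12 libraries, and the 3 p75NTRko libraries lay above all of WT and 5xFAD/p75NTRko. For p75NTRko against WT its log2 fold change was 0.38 (unadjusted p = 0.0254, adjusted p = 0.38 by edgeR), and 0.17 without WT replicate 2.

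Canx and Calr are lectin chaperones that bind sugar chains on new glycoproteins. Canx read 368 to 453 CPM over the 12 libraries and had the smallest spread within genotypes of the 34 genes, an SD of 0.0894 log2 units. Calr read 106 to 141 CPM. Pdia4, a further disulfide isomerase, was counted only 23 to 54 times a library (3.73 to 10.3 CPM), which leaves little to compare.

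Of the sensors and their transcription factors, Ern1, the kinase and RNase that splices Xbp1, was at 0 to 3 counts in every library and was not tested. Xbp1 read 49.8, 35.5 and 52.6 CPM (WT), 37.7, 50.3 and 38.1 (5xFAD), 50.4, 37.5 and 49.2 (p75NTRko) and 39.1, 35.7 and 48.04 (5xFAD/p75NTRko). The genotypes overlapped throughout, with an adjusted p of 0.879 for any difference by edgeR, and spliced and unspliced forms are not separated by these counts. Atf6, the sensor that is cut to release a transcription factor, read 33.9 to 74.9 CPM, lowest in WT replicate 2. Its log2 fold change of 0.43 for p75NTRko against WT became 0.22 without that library.

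Herpud1, Edem1, Dnajb9 and Dnajc3 serve the removal of misfolded protein or help Hspa5. Herpud1, a membrane protein of the degradation pathway, read 147, 165 and 121 CPM (WT), 105, 117 and 111 (5xFAD), 135, 109 and 103 (p75NTRko) and 105, 108 and 139 (5xFAD/p75NTRko). Apart from 5xFAD/p75NTRko replicate 3 and p75NTRko replicate 1, the libraries of the 3 other genotypes lay below all of WT. Its log2 fold change was -0.38 for 5xFAD against WT (unadjusted p = 0.0158, adjusted p = 0.283 by edgeR) and 0.40 for the interaction (adjusted p = 0.539). The interaction was 0.26 without 5xFAD/p75NTRko replicate 3 and -0.17 with Xist class as a term.

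Dnajb9 (22.4 to 38.6 CPM) and Dnajc3 (58.4 to 107 CPM), both partners of Hspa5, and Edem1 (11.04 to 19.7 CPM), which steers glycoproteins to degradation, varied within genotypes. In Edem1 the 3 libraries of 5xFAD/p75NTRko (19.7, 16.96 and 18.03 CPM) lay above the 3 of WT (15.4, 11.04 and 15.1 CPM), a difference of 0.40 log2 units (adjusted p = 0.491 by edgeR) that was 0.26 without WT replicate 2 (adjusted p = 0.842). The promoter of Herpud1 was the only one among the members with ERSE-II, a shorter relative of the ERSE that 0.0444% of all genes hold, and it also holds a CARE match. The core of the UPR element, TGACGTGG, was in 0 of the 33 windows and in 0.714% of all genes.

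Sdf2l1, Manf and Creld2 are small proteins of the endoplasmic reticulum. Together with Hspa5 and Pdia6 they made up the 5 members that were lower in 5xFAD/p75NTRko than in p75NTRko at an unadjusted p under 0.05. Sdf2l1, which works with cofactors of Hspa5, read 8.07, 6.82 and 9.29 CPM (WT), 7.301, 9.95 and 6.101 (5xFAD), 8.34, 8.05 and 9.66 (p75NTRko) and 6.99, 6.24 and 3.77 (5xFAD/p75NTRko). The lowest value was 5xFAD/p75NTRko replicate 3, at 23 counts, and all 3 libraries of that genotype lay below those of p75NTRko. The difference was -0.63 log2 units with an SE of 0.258, and edgeR gave an adjusted p of 0.717. It was -0.40 without 5xFAD/p75NTRko replicate 3 and -0.34 with the choroid plexus score as a term. Oligodendrocyte markers were on the lower side in this comparison, as given above.

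Manf, a secreted protein with a neurotrophic role, read 44.2, 35.7 and 41.97 CPM (WT), 31.1, 34.6 and 35.1 (5xFAD), 52.1, 36.3 and 39.99 (p75NTRko) and 40.3, 24.8 and 32.95 (5xFAD/p75NTRko). Carriers at 24.8 to 40.3 CPM and non-carriers at 35.7 to 52.1 CPM overlapped. Creld2 read 13.6, 18.2 and 13.4 CPM (WT), 10.2, 15.2 and 12.8 (5xFAD), 17.1, 11.04 and 16.2 (p75NTRko) and 12.3, 8.97 and 9.67 (5xFAD/p75NTRko), again with overlap. The carrier difference was -0.33 for Manf and -0.38 for Creld2 in log2 units, with adjusted p of 0.395 and 0.43 by edgeR.

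Summed over the chaperone response genes, the level was 1861 to 2109 CPM in carriers and 2201 to 2497 CPM in non-carriers, and without Hspa5 and Pdia6 it was 1202 to 1285 CPM and 1176 to 1404 CPM, with overlap. The median log2 fold change of the 15 tested genes was -0.15, beside 0.0054 for all genes. The Atf4-linked genes summed to 1085 to 1299.6 CPM in carriers and 1073 to 1412 CPM in non-carriers, and their median was 0.01.

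**Figure D4:**
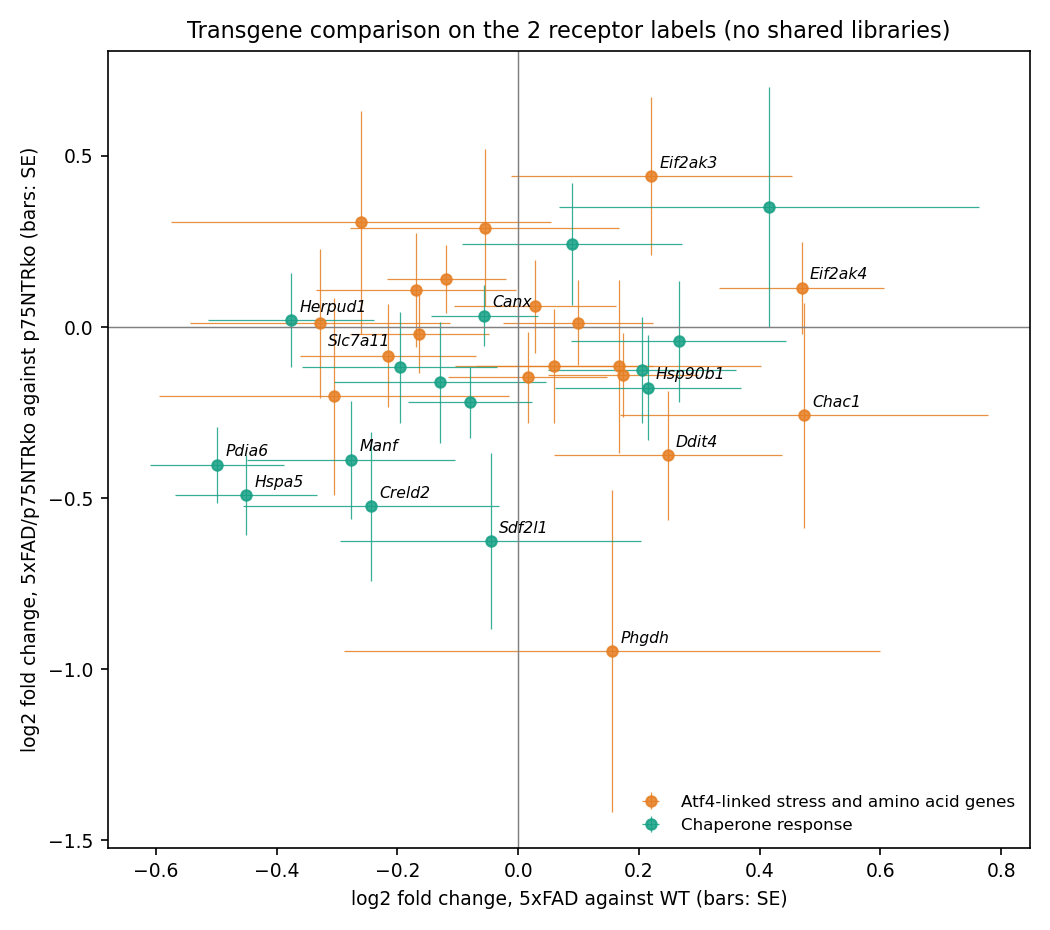
Log2 fold change of 5xFAD against WT (horizontal) and of 5xFAD/p75NTRko against p75NTRko (vertical) for the 34 genes, 2 comparisons without a shared library; bars are standard errors, and 14 genes are named. Hspa5 and Pdia6 lie between -0.50 and -0.40 on both axes, while Eif2ak4 is at 0.47 on the horizontal and 0.12 on the vertical axis, and Phgdh carries the longest bars.

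Of the kinases that phosphorylate eIF2, Eif2ak4 (GCN2), at chr2:118388583-118475234 (GRCm38), read 13.3, 13.96 and 14.4 CPM (WT), 20.5, 18.4 and 18.7 (5xFAD), 19.5, 19.1 and 16.8 (p75NTRko) and 21.6, 20.5 and 17.7 (5xFAD/p75NTRko). The 3 WT libraries were the lowest of the 12, and the 3 other genotypes overlapped with each other. Genotype means were 13.9 ± 0.5699 (SD, n = 3), 19.2 ± 1.15, 18.4 ± 1.44 and 19.9 ± 2.02 CPM in the same order. Each library held 83 to 130 counts of it.

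Against WT the log2 fold change of Eif2ak4 was 0.47 in 5xFAD (adjusted p = 0.23 by edgeR), 0.40 in p75NTRko (adjusted p = 0.342) and 0.52 in 5xFAD/p75NTRko (adjusted p = 0.325). These comparisons share the 3 WT libraries and are not separate pieces of evidence. Over all genes, 1.22% were higher in all 9 other libraries than in all 3 of WT, and 1.06% were lower, and of the 34 members 1 was higher and 0 lower. DESeq2 did not call it in these comparisons either (adjusted p = 0.234, 0.514 and 0.393). Striatal markers, of tissue outside the hippocampus, parted the same libraries: their sum over 8 genes was 128 to 144 CPM in WT and 97.5 to 119 CPM in the 9 other libraries, with Drd2, a defining marker, at 0 in all 12. Their part in the Eif2ak4 values was not tested.

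Eif2ak3 (PERK), the kinase that senses unfolded protein, read 7.95 to 21.8 CPM, lowest in WT replicate 2. Its log2 fold change for 5xFAD/p75NTRko against WT was 0.52, and 0.26 without that library. Ppp1r15a (GADD34) and Ppp1r15b direct the phosphatase that reverses the phosphorylation. Ppp1r15a, the inducible one, was seen at 3.57 to 6.98 CPM and Ppp1r15b at 44.95 to 64.4 CPM, both with overlapping genotypes.

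Among the transcription factors, Atf4 read 362, 469.98 and 326 CPM (WT), 321, 346 and 363 (5xFAD), 348, 318 and 248 (p75NTRko) and 288, 282 and 414 (5xFAD/p75NTRko). WT replicate 2 held the highest value and p75NTRko replicate 3 the lowest, and all genotypes overlapped (adjusted p for any difference = 0.65 by edgeR). Atf5, its relative, read 65.1 to 99.5 CPM, also highest in WT replicate 2.

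Ddit3 (CHOP), the transcription factor linked to cell death under lasting stress, read 28.2, 32.1 and 28.7 CPM (WT), 22.4, 24.4 and 30.1 (5xFAD), 26.5, 23.5 and 20.2 (p75NTRko) and 23.3, 19.5 and 23.1 (5xFAD/p75NTRko). All p75NTRko and 5xFAD/p75NTRko libraries lay below all WT libraries, and 5xFAD replicate 3 lay within the WT range. In log2 units the difference was -0.35 for p75NTRko against WT, -0.43 for 5xFAD/p75NTRko against WT (adjusted p = 0.467 by edgeR) and -0.28 for the receptor-labelled libraries against the others (adjusted p = 0.704). The test of any difference gave an adjusted p of 0.475 by edgeR.

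Cebpb, a partner that pairs with Atf4 and Ddit3, read 38.7, 40.1 and 47.4 CPM (WT), 49.7, 41.9 and 50.7 (5xFAD), 58.8, 56.6 and 50.8 (p75NTRko) and 48.6, 56.1 and 46.1 (5xFAD/p75NTRko). It was higher in all p75NTRko libraries than in all WT libraries, by 0.40 log2 units with an SE of 0.123 (edgeR, adjusted p = 0.325). The 5xFAD/p75NTRko libraries overlapped with WT. Ddit3 and Cebpb thus lay on opposite sides of WT in the p75NTRko-labelled libraries, neither past the threshold.

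Trib3, the pseudokinase that restrains Atf4 and Ddit3, was at 0 to 5 counts in every library: 0.747, 0.811 and 0.166 CPM (WT), 0.849, 0.563 and 0.2104 (5xFAD), 0.185, 0.4599 and 0 (p75NTRko) and 0.333, 0.3898 and 0.164 (5xFAD/p75NTRko). These values are near the level of 3 counts, and the gene did not pass the filter. Sesn2, a sensor of leucine, was at 0 to 3 counts and was also left untested. Nupr1, a small nuclear protein induced by stress, read 2.97 to 7.798 CPM from 17 to 47 counts. Trib3 and Sesn2 are among the genes that rise from low levels when this response is strong, and both were at the limit of measurement in all 4 genotypes.

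Ddit4 (REDD1), which inhibits mTORC1, read 37.4, 65.2 and 50.8 CPM (WT), 72.3, 51.6 and 57.6 (5xFAD), 78.8, 62.3 and 60.4 (p75NTRko) and 44.96, 50.5 and 59.8 (5xFAD/p75NTRko). The p75NTRko libraries lay just above those of 5xFAD/p75NTRko, and the other pairs of genotypes overlapped. It had the smallest p of the members for the interaction, -0.62 in log2 units (SE 0.267, adjusted p = 0.508 by edgeR) and -1.21 with Xist class as a term. Chac1, an enzyme that degrades glutathione, read 4.48, 4.22 and 4.31 CPM (WT), 6.62, 3.76 and 7.78 (5xFAD), 5.19, 4.599 and 2.82 (p75NTRko) and 3.497, 2.73 and 4.099 (5xFAD/p75NTRko). At 14 to 39 counts a library, its log2 fold change of -0.80 for 5xFAD/p75NTRko against 5xFAD had an SE of 0.315 (adjusted p = 0.878 by edgeR), and it was -1.32 with Xist class as a term.

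The amino acid genes split into importers and makers. Slc3a2 is the heavy chain shared by the importers Slc7a5 and Slc7a11. It read 95.6, 119.6 and 104 CPM (WT), 97.97, 101 and 94.7 (5xFAD), 91.2, 97.3 and 89.3 (p75NTRko) and 111, 98.8 and 96.4 (5xFAD/p75NTRko), with overlap of all genotypes and an interaction of 0.26 (adjusted p = 0.567 by edgeR) that was 0.17 without WT replicate 2 and 0.13 with the thalamus and habenula score as a term. Slc7a5, the importer of large neutral amino acids, read 86.9 to 135 CPM and Slc7a11, which brings in cystine, 66.1 to 163 CPM.

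Asns, asparagine synthetase and a standard reporter of Atf4 activity, read 22.98 to 30.4 CPM, a log2 fold change of 0.03 for 5xFAD against WT (95% interval -0.26 to 0.31) and -0.01 for 5xFAD/p75NTRko against WT (-0.29 to 0.28). Psat1 and Phgdh make serine. Psat1 read 148 to 209 CPM, while Phgdh, the first enzyme of the same path, read 38.7, 6.33 and 20.2 CPM (WT), 15.96, 26.9 and 30.7 (5xFAD), 22.2, 22.3 and 25.9 (p75NTRko) and 9.66, 7.797 and 18.9 (5xFAD/p75NTRko).

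Phgdh varied more than any other tested member, 6.11-fold between the highest and the lowest library, both of them WT (replicates 1 and 2). Its SD within genotypes was 0.756 log2 units, the largest of the 34. The log2 fold change of -0.996 for 5xFAD/p75NTRko against 5xFAD had an SE of 0.4699 (adjusted p = 0.97 by edgeR), and that against WT went from -0.84 to -1.27 without WT replicate 2, with an adjusted p of 0.570.

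Mthfd2 and Shmt2 are the mitochondrial enzymes of one-carbon metabolism. Mthfd2 read 21.2, 22.9 and 21.7 CPM (WT), 20.7, 27.4 and 25.9 (5xFAD), 20.8, 17.2 and 9.81 (p75NTRko) and 18.98, 10.3 and 14.1 (5xFAD/p75NTRko). The 5xFAD/p75NTRko libraries lay below all 5xFAD libraries, and p75NTRko replicate 1 lay within the range of 5xFAD. Its log2 fold change was -0.76 for 5xFAD/p75NTRko against 5xFAD (SE 0.245, adjusted p = 0.715 by edgeR) and -0.62 for the receptor-labelled libraries against the others (SE 0.173, adjusted p = 0.437). The first was -1.41 with Xist class as a term. Shmt2 was seen at 5.005 to 8.601 CPM.

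The C/EBP-ATF response element (CARE), at which Atf4 binds with a partner, was searched as TGATGNAAN on both strands. It was in 5 of 19 Atf4-linked genes with a window (Trib3, Asns, Chac1, Slc7a11 and Nupr1) and in 4.5% of all genes in the table of promoters. As with the ERSE, the genes were listed by pathway, so this share describes the list. The elements of Asns and Slc7a11 are shown because these known targets of Atf4 were at measurable levels, and that of Chac1 as a target at a low level. Each stands on the gene's own strand with its match in capitals. Slc7a11 has a pair of them in opposite directions.
Asns (chr6:7693210-7693252): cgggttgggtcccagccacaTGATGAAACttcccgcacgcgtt
Slc7a11 (chr3:50443651-50443699): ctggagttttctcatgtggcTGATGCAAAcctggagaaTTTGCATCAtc
Chac1 (chr2:119351028-119351076): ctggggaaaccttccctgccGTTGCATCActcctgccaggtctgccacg
The log2 fold changes of 5xFAD against WT for these 3 genes were 0.03, -0.33 and 0.47, none past the threshold by edgeR.

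Other genes of the same pathways were given by 3 lists. Of 33 further targets and partners of Atf4, 29 were tested. Between 5xFAD and WT 1 of them was called, lower, and 0 were called higher. It was Slc38a2, the importer SNAT2 for small neutral amino acids, a call that was known from earlier results on these data. It read 329, 341 and 352 CPM (WT), 217, 194 and 228 (5xFAD), 275, 239 and 222 (p75NTRko) and 223, 211 and 268 (5xFAD/p75NTRko). The 3 WT libraries were the highest of the 12.

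Slc38a2 fell by 0.68 on the log2 scale between WT and 5xFAD (SE 0.109, adjusted p = 0.0369 by edgeR). The call was lost in 11 of 22 alternatives, among them Xist class as a term (-0.42, adjusted p = 0.949) and leaving out WT replicate 1 (adjusted p = 0.231), WT replicate 2 (0.137), 5xFAD replicate 1 (0.137), 5xFAD replicate 2 (0.235), 5xFAD replicate 3 (0.136), p75NTRko replicate 2 (0.0798) or p75NTRko replicate 3 (0.0524). Over the 22 alternatives the estimate for 5xFAD against WT ran from -0.73 to -0.42, without a change of direction. Against WT the log2 fold change of Slc38a2 was -0.47 in p75NTRko and -0.54 in 5xFAD/p75NTRko, with adjusted p of 0.182 and 0.139 by edgeR. Between 5xFAD and WT, sex class and genotype cannot be told apart, and the part of the striatal markers, also highest in WT, was not tested.

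Of 12 genes for eIF2, its exchange factor, its other kinases and related factors (among them Eif2a and Impact), 12 were tested. By edgeR, 0 were called, higher or lower, in any comparison. The smallest p in the test of any difference was that of Eif2b2, a subunit of the exchange factor (adjusted p = 0.363). It too was lower in carriers without overlap, at 43.3 to 48.5 CPM against 51.2 to 62.5 CPM in non-carriers, as were 0.23% of all genes. The carrier difference was -0.29 log2 units (adjusted p = 0.231 by edgeR). Of 34 further genes of the endoplasmic reticulum, 33 were tested and 0 called, with Vimp, a selenoprotein of its degradation machinery, at the smallest p (adjusted p = 0.454). At an unadjusted p under 0.05 in the test of any difference there were 5 of the 29, 3 of the 12 and 2 of the 33, beside 10.4% of all genes.

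WT replicate 2 stood apart in this set. It held the lowest value of 9 members and the highest of 11, which is 26.5% and 32.4% of the 34, beside 20.1% and 16.5% of all genes. It also had the lowest sum of hippocampal neuron markers, 2952 CPM. Without it, Hsp90b1, Atf6, Herpud1 and Ddit3 no longer had an unadjusted p under 0.05 for p75NTRko against WT, nor did Eif2ak3, Atf6, Edem1, Herpud1, Creld2 and Mthfd2 for 5xFAD/p75NTRko against WT, Herpud1 for 5xFAD against WT, or Creld2 between carriers and non-carriers. Others came under 0.05 without it: Ddit4 (0.46 and 0.61 log2 units) and Slc7a11 (-0.48 and -0.56) for 5xFAD and for p75NTRko against WT, and Slc7a11 (-0.54), Phgdh (-1.27), Dnajc3 (-0.39), Sdf2l1 (-0.62) and Manf (-0.39) for 5xFAD/p75NTRko against WT. Phgdh also did between carriers and non-carriers (-0.61). None of these passed the adjusted threshold of edgeR. Hspa5, Pdia6 and Eif2ak4 kept theirs, with log2 fold changes of -0.56, -0.46 and 0.52 for 5xFAD/p75NTRko against WT.

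The median log2 fold change over the 34 members was -0.05 for 5xFAD against WT, -0.01 for p75NTRko against WT, -0.03 for 5xFAD/p75NTRko against 5xFAD, -0.11 for 5xFAD/p75NTRko against p75NTRko and -0.16 for 5xFAD/p75NTRko against WT. Over all genes the same medians lay between -0.0036 and 0.014. The medians moved with single libraries. That of 5xFAD/p75NTRko against p75NTRko was -0.0076 without p75NTRko replicate 1 and -0.070 without 5xFAD/p75NTRko replicate 2, and that of 5xFAD/p75NTRko against WT was -0.068 without WT replicate 2 and -0.075 without 5xFAD/p75NTRko replicate 2. The 3 smaller medians ranged, over the 12 left-out libraries, from -0.057 to 0.0054 (without 5xFAD replicate 1), from -0.076 (without p75NTRko replicate 1) to 0.017 (without p75NTRko replicate 3) and from -0.085 (without 5xFAD replicate 1) to -0.0070 (without 5xFAD replicate 2). With Xist class as a term they were 0.081, 0.078 and -0.21. Members with values below 0 numbered 18, 18, 22, 21 and 23 of 34 in the same order.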

How the data were processed

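Hippocampal RNA was made into 3′ mRNA libraries (QuantSeq, forward), 3 for each of 4 genotypes. The authors deposited raw counts of reads per gene symbol, with no normalization. FastQC, HISAT2, SAMtools, HTSeq and edgeR, and the mouse build mm10, are named without role or version in the submitters' processing notes. Which annotation was counted, and whether by strand, is not given in the sources used here, so overlapping and antisense genes are uncertain. The 5 summary lines of the table were left out: 28.9% to 33.5% of a library's reads lay outside any feature and 32.2% to 38.5% were assigned to genes. Libraries of a genotype differed by 3.09 to 17.2 chi-square per degree of freedom, so none was a copy of another of its genotype. Libraries of different genotypes were not compared in this way. Limits from counts cover counting error only.

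Counts were fitted in R 4.3.3 with edgeR 4.0.16 (filterByExpr by genotype, TMM scaling with factors of 0.975 to 1.03, quasi-likelihood test, a mean per genotype over all 12 libraries). P-values were adjusted by the Benjamini-Hochberg method over 13065 genes, with a threshold of 0.05. The common biological coefficient of variation was 13.8%. Each standard error is the fold change divided by the root of F. CPM used TMM-scaled totals. The fitting was tested on simulated data.

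The members and all gene lists were chosen with earlier results of these data known. Values in every library were given for Atf4, Ddit3, Trib3, Xbp1 and Hspa5, for any member past the threshold and for the 3 smallest p-values of each of 7 comparisons; Manf, Creld2 and Edem1 were added after their values were seen. From the other lists a gene was named if called, or if smallest in p in the test of any difference. Alternatives were DESeq2 1.42.0, RLE size factors, other filters, only the compared genotypes, the replicate number as a block, Xist class (above or below 100 CPM), choroid plexus or thalamus markers as a term, and each library left out. Scaling without members and markers, and the 2 pooled comparisons, were chosen after seeing the data. Promoter windows and gene positions were taken from RefSeq (GRCm38.p6, the assembly of mm10).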

Additional observations from a re-analysis of the deposited data

How the results depend on the processing

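The count of members called was 0 in all 9 comparisons, and every alternative that moved it added Hspa5, Pdia6 or both. DESeq2 called 2 members for 5xFAD against WT, 1 for 5xFAD/p75NTRko against p75NTRko, 2 for 5xFAD/p75NTRko against WT, 2 for any difference and 2 for carriers against non-carriers. Without a filter on low counts 2 were called for any difference and 2 for carriers against non-carriers. Leaving out each library in turn gave 0 to 2 for carriers against non-carriers and 0 in the other 8 comparisons. The cause of these moves was not tested. Over 37 pairs of gene and comparison and 795 refits, 754 kept direction and side of the threshold, 17 gained a call, 11 lost one (all Slc38a2) and 13 reversed, none of them called. Hspa5 reversed for p75NTRko against WT with Xist class (0.15) or thalamus markers (0.14) as a term and without WT replicate 3 (0.027) or p75NTRko replicate 3 (0.027; lowest value when leaving out a library -0.16), and for the interaction without WT replicate 1 (0.020), 5xFAD replicate 2 (0.030) or p75NTRko replicate 1 (0.071; lowest -0.13). Pdia6 reversed for 5xFAD/p75NTRko against 5xFAD without 5xFAD replicate 2 (0.038) or 5xFAD/p75NTRko replicate 2 (0.064; lowest -0.12), for p75NTRko against WT with the thalamus term (0.071), and for the interaction with Xist class (-0.11) or the thalamus term (-0.15). Herpud1 reversed for the interaction with Xist class (-0.17). With the replicate number as a block 0 members were called in any comparison, and carriers against non-carriers gave -0.47 for Hspa5 and -0.45 for Pdia6 (adjusted p = 0.192 for both by edgeR). The numbers did not pair the libraries: 18 same-numbered pairs had correlations of -0.42 to 0.14, and 2 of 12 libraries correlated best with their own number. Chac1 and Sdf2l1 were not tested at a mean of at least 50 counts. Depth limited Trib3, Sesn2 and Ern1, at 0 to 5 counts a library.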
